A study of Gallus gallus with 6 samples.

Results

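Integrins and the proteins that join them to the actin skeleton were followed in chicken B cells with and without PAX5. Genes were taken by symbol: those that begin with ITGA, ITGB, LIMS, PARV or FERMT, together with VCL, TLN1, TLN2, PXN, ZYX, PTK2, PTK2B, ILK, EMB and BSG. The rule found 37 genes with 82 probe sets among 13009 named genes and 38439 probe sets, and each gene was represented by its brightest probe set. The array annotation gave 16 integrin subunits, 10 of the alpha and 6 of the beta class. Further subunits such as ITGA5, ITGB8 and ITGA2B were not analysed here, and neither was FERMT3. The symbol rule also took 4 genes that are named after integrins but encode no subunit, namely ITGB1BP1, ITGB1BP3, ITGB3BP and ITGBL1.

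Integrins are pairs of an alpha and a beta subunit that hold cells to the matrix or to other cells. Talin and the kindlins bind the tail of the beta subunit inside the cell and switch the receptor on, and vinculin, paxillin, zyxin and the complex of ILK with PINCH (LIMS) and parvin (PARV) proteins tie it to actin. The kinases FAK (PTK2) and PYK2 (PTK2B) signal from these sites. In lymphocytes, integrins serve homing, arrest on vessel walls and contact with antigen-presenting cells.

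The cells were DT40, a female chicken cell line of bursal B cell origin that integrates targeting constructs by homologous recombination at an unusually high rate. Wild-type DT40 cells (3 samples) were compared with cells of genotype Pax5-/- (3 samples), made by electroporation of the constructs Pax5-neo and Pax5-bsr and selection of stable clones. Both groups were kept in the same medium with fetal calf and chicken serum at the same temperature. The samples are described as biological replicates, but no separate clone is named for each Pax5-deficient sample, and nothing says that the samples of a group came from separate cultures, so the p-values reflect only how these particular samples vary, which may be technical. Targeting involved transfection and drug selection, and since the labels carry identical treatment text for all 6 samples they do not say whether the wild-type cells passed through those steps, so any effect of them and of the loss of PAX5 cannot be told apart.

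Arrays were Affymetrix chicken arrays, 1 for each sample, and values are log2 expression per probe set. The array medians lay between 3.95 and 4.02, and the samples correlated over all probe sets at 0.9946 to 0.9959 within the wild-type and 0.9909 to 0.9936 within the Pax5-deficient group. The array carries 689 probe sets for genomes of viruses, and the level that 95% of them do not exceed, 3.78 to 3.93 in log2 units, served as background, and "at background" means that no sample of the group in question exceeded that level. The probe set of PAX5 that passed the test fell from 4.42 ± 0.12 to background at 3.58 ± 0.26 (SD, n = 3), while the brightest of its 4 probe sets had a log2 difference of 0.24 ± 0.09 (SE), which did not pass. Of 7 measured B lineage markers all were above background in wild-type cells, and their sample means went from between 10.29 and 10.31 to between 6.99 and 7.31, with EBF1 at background in the Pax5-deficient samples. T lineage markers (12 measured) had sample means of 4.47 to 4.55 in wild-type and 4.63 to 4.72 in Pax5-deficient cells, with CD4, CD28, TRAT1, BCL11B and GATA3 at background in both groups, while CD247 and CD8A were higher and CD3E lower, genes singled out after their values were seen. Sample means of 12 myeloid, 12 fibroblast and stromal, and 8 thrombocyte and erythroid markers overlapped between the groups, at 4.38 or less, taking the brightest probe set of each gene. Of the genes in these lists COL1A2 was called higher and TUBB1 lower, likewise singled out afterwards, and dimmer probe sets of COL1A2 rose far more, as given with the integrin ligands. Whether these markers play a part in the differences of the adhesion genes was not tested. Pax5-deficient replicate 2 differed from replicates 1 and 3 in the median deviation of chromosome 10 (0.17 against -0.02 and -0.05 on the log2 scale) and of chromosome 21 (-0.11 against 0.23 and 0.20). The wild-type samples were at -0.04 to -0.02 on chromosome 10 and at -0.13 to -0.06 on chromosome 21. On chromosome 21 it was thus replicates 1 and 3 that lay apart from wild type. Values are also given without Pax5-deficient replicate 2 where it changes the call of an adhesion gene, and for several genes in which it stood apart.

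Of the 37 adhesion genes, 8 fell and 2 rose in Pax5-deficient cells, and 27 did not pass an adjusted p of 0.05 (limma, two-sided, Benjamini-Hochberg over all probe sets). The genes that fell were EMB, PTK2, ILK, PARVG, ITGA6, ITGA4, PTK2B and ITGA2, and VCL and LIMS2 rose. The share that passed was 27%, against 15.8% of all named genes. Lower calls made up 21.6% of the adhesion genes and 9.74% of all genes, and higher calls 5.41% and 6.01%. The median log2 difference was -0.04 for the adhesion genes and 0.03 for all genes. In 30 of the 37 at least 1 sample was above background, and of these 7 fell and 2 rose, a share of 30% where 20.1% of all genes above background passed. For 15 of the 37 genes (40.5%) every sample of 1 group lay above every sample of the other, against 35% of all genes. Without Pax5-deficient replicate 2 the counts were 9 lower and 2 higher. In these bulk samples, fewer cells that express a gene and less RNA per cell cannot be told apart.

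**Figure D1:**
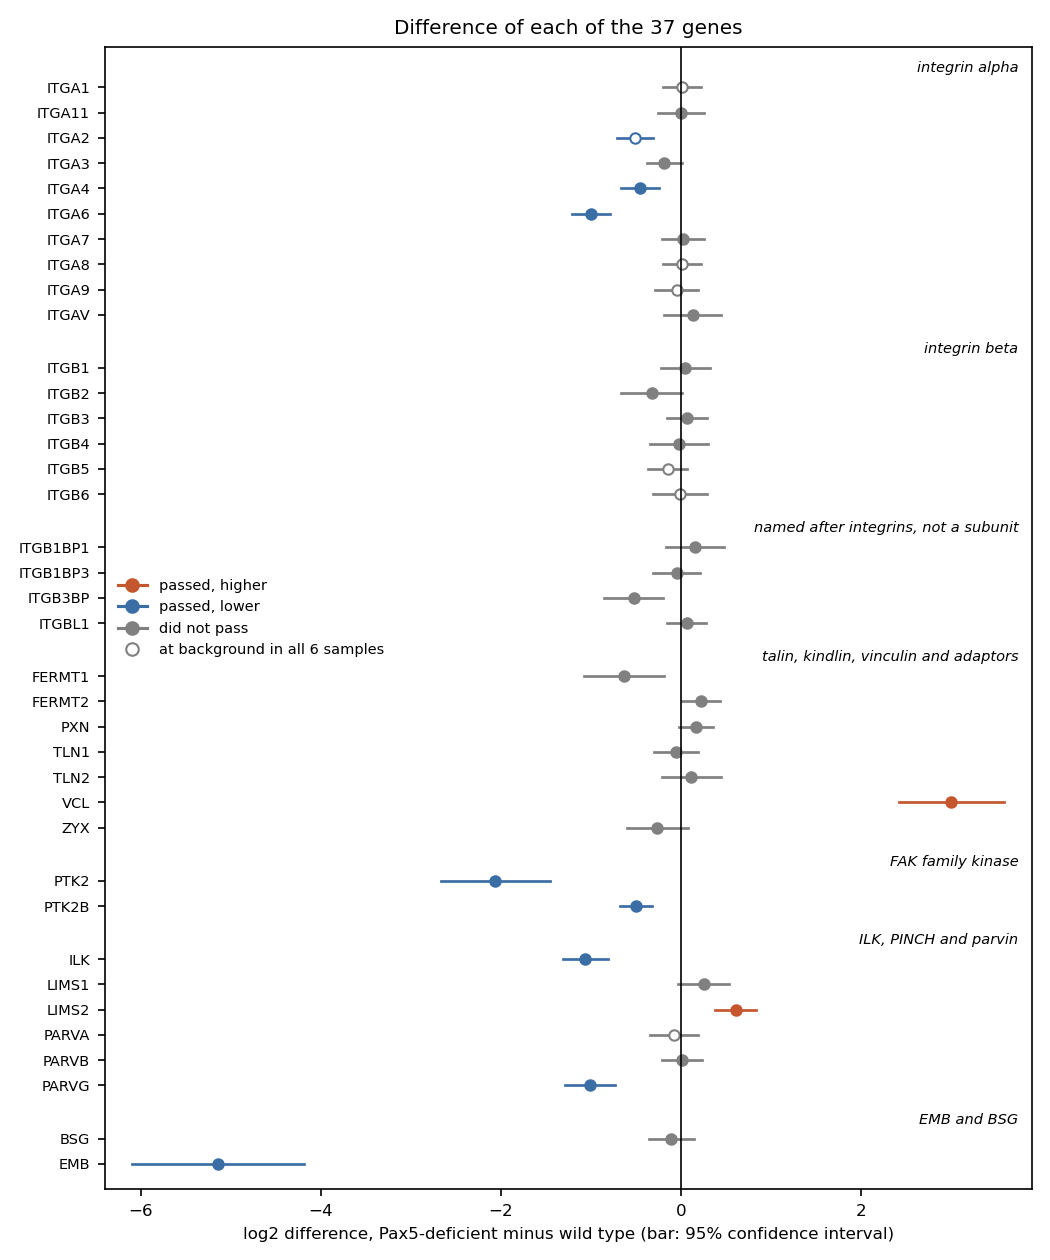
Log2 difference between Pax5-deficient and wild-type cells (x axis) for the 37 genes (y axis), grouped by role. Points are limma estimates from 3 samples per group, bars 95% confidence intervals, open points genes at background in all 6 samples. EMB at -5.14 and VCL at 3.01 lie at the ends, and 27 genes did not pass.

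Among the integrin alpha subunits, ITGA6 and ITGA4 fell. ITGA6, the chain of laminin receptors that pairs with ITGB1 or ITGB4, measured 6.81, 6.90 and 6.98 in the wild-type samples and 5.80, 5.94 and 5.96 in the Pax5-deficient samples. The groups did not overlap, and all Pax5-deficient samples lay about equally low. The log2 difference was -0.996 ± 0.09 (SE from 3 samples per group, as for all differences; limma adjusted p = 0.000215), which is 1.99-fold lower. The other ITGA6 probe set fell by 0.44 ± 0.09 on the log2 scale, a call that depended on wild-type replicates 1 and 3 (without either it did not pass; highest limma adjusted p = 0.0687).

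ITGA4, which with ITGB1 binds VCAM1 and fibronectin and is prominent on lymphocytes, measured 9.90, 9.80 and 9.70 in wild-type and 9.44, 9.31 and 9.30 in Pax5-deficient samples. The groups did not overlap, but the gap between them was small. The fall was 0.45 ± 0.09 on the log2 scale, or 1.37-fold (limma adjusted p = 0.0142). Its 2 other probe sets fell by 0.55 ± 0.10 and 0.47 ± 0.10, the second of them at background in all samples. The first of these calls was lost without wild-type replicate 2 (limma adjusted p = 0.0501), the second without wild-type replicate 3 (limma adjusted p = 0.0536). On the brightest probe set ITGA4 did not pass when wild-type replicate 1, wild-type replicate 2 or Pax5-deficient replicate 3 was left out, with limma adjusted p-values of 0.0565, 0.0593 and 0.0543.

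ITGA2, a collagen receptor chain, measured 3.74, 3.71 and 3.74 in wild-type and 3.34, 3.19 and 3.13 in Pax5-deficient samples. It passed (limma adjusted p = 0.0067), yet every one of these values was under the background of its array, so no fold is given. Of the other alpha subunits, ITGA1, ITGA8 and ITGA9 were at background in all samples, and ITGAV was above it in 1 sample of each group. ITGA3, a laminin receptor chain, was well above background, with values of 6.87, 7.04 and 6.94 in wild-type and 6.72, 6.78 and 6.80 in Pax5-deficient samples. Its samples did not overlap, and its log2 difference of -0.18 ± 0.09 did not pass (95% confidence interval -0.38 to 0.01). ITGA7 and ITGA11, known from muscle and mesenchymal cells, were above background with group means of 4.77 or less and had differences of 0.02 ± 0.10 and 0.00 ± 0.11.

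None of the 6 integrin beta subunits passed, where 15.8% of all genes did. ITGB1, the partner of most of the alpha chains above, measured 10.45, 10.50 and 10.39 in wild-type and 10.33, 10.75 and 10.40 in Pax5-deficient samples. The groups overlapped, with Pax5-deficient replicate 2 the highest. The log2 difference was 0.05 ± 0.12, with a 95% confidence interval from -0.22 to 0.32, and the other ITGB1 probe set had 0.17 ± 0.11. Without that sample the ITGB1 difference was -0.08 ± 0.10. ITGB2, the beta chain of leukocyte integrins, measured 8.88, 8.83 and 8.86 in wild-type and 8.67, 8.17 and 8.77 in Pax5-deficient samples. All Pax5-deficient samples were lower, replicate 2 by the most, and the difference of -0.32 ± 0.15 did not pass (limma adjusted p = 0.24; interval -0.66 to 0.01). Without replicate 2 the ITGB2 difference was -0.14, with an SE of 0.095. ITGB3 and ITGB4 were above background with differences of 0.07 ± 0.10 and -0.02 ± 0.14, and ITGB5 and ITGB6 were at background in all samples.

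Of the genes named after integrins, ITGB3BP encodes a centromere protein that was also described as a binder of the ITGB3 tail. It measured 8.85, 8.79 and 8.78 in wild-type and 8.63, 8.03 and 8.19 in Pax5-deficient samples. The groups did not overlap, and the difference of -0.52 ± 0.14 lay just outside the threshold (limma adjusted p = 0.0537). Without Pax5-deficient replicate 1 it passed, at -0.70 ± 0.10 (limma adjusted p = 0.00399). ITGB1BP1, a binder of the ITGB1 tail, had 0.16 ± 0.14, and ITGBL1, an integrin-like protein that is no receptor chain, 0.06 ± 0.10. ITGB1BP3 was at 13.43 ± 0.02 in wild-type and 13.39 ± 0.22 in Pax5-deficient cells (SD, n = 3) on a probe set of the type that can match several transcripts, while its other probe set was at 3.85 in wild-type cells, so the identity of the bright signal is uncertain.

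**Figure D2:**
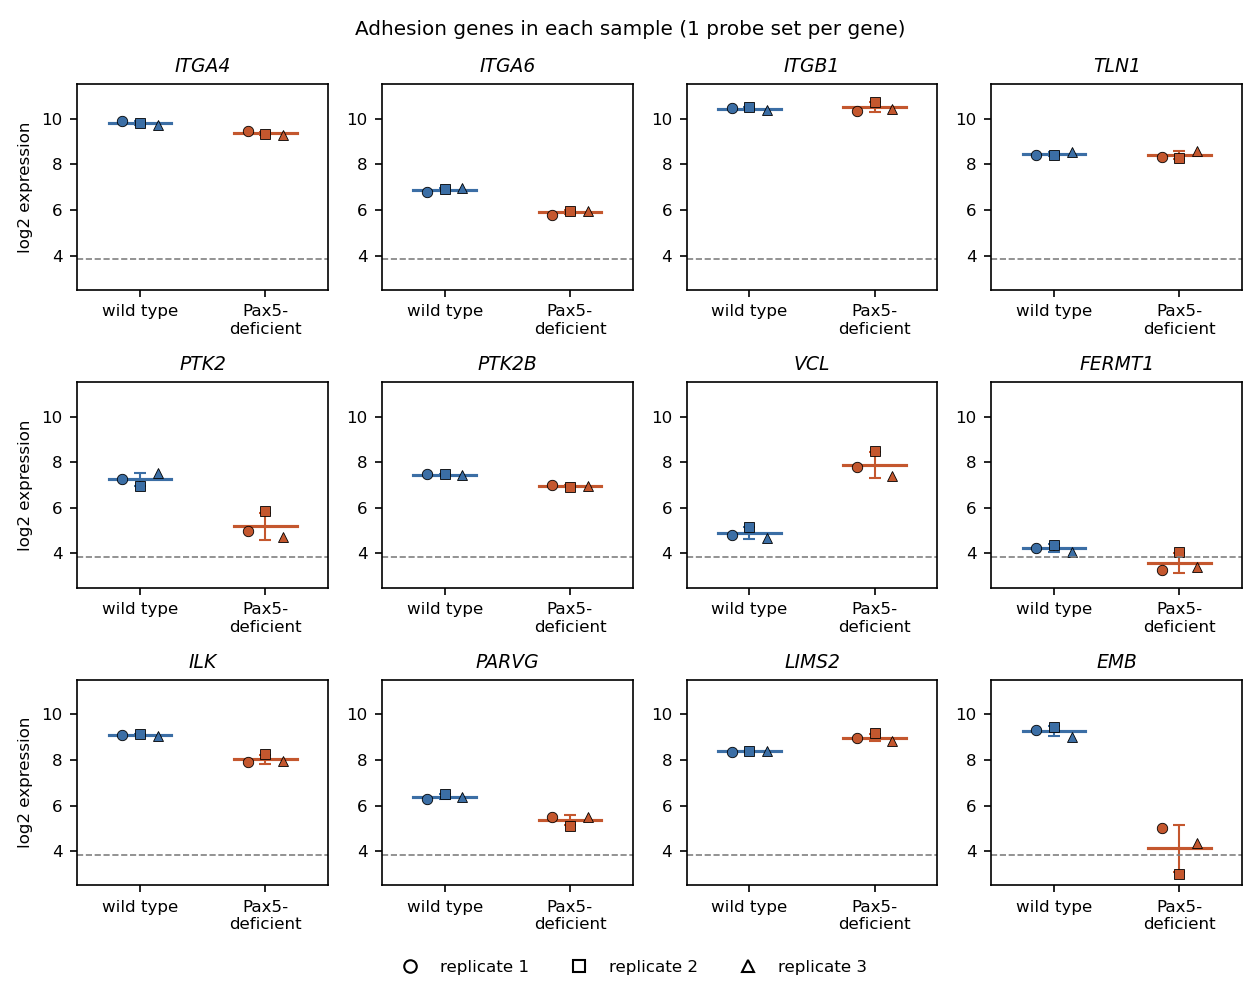
Log2 expression (y axis) of 12 adhesion genes in each of the 3 wild-type (blue) and 3 Pax5-deficient (orange) samples, with symbols for the replicate, a horizontal line at the group mean and bars of 1 SD. The dashed line is the mean array background of 3.83. PTK2, PTK2B, ILK, PARVG, ITGA4, ITGA6 and EMB are lower and VCL and LIMS2 higher in every Pax5-deficient sample, while ITGB1, TLN1 and FERMT1 overlap.

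Of the 7 genes for talins, kindlins, vinculin, paxillin and zyxin, 1 rose and 6 did not pass. Among all genes 6.01% rose and 9.74% fell. VCL, which encodes vinculin, a protein that binds talin and actin at stretched adhesions, measured 4.82, 5.17 and 4.66 in wild-type and 7.79, 8.50 and 7.38 in Pax5-deficient samples. Every Pax5-deficient sample was more than 2 log2 units above every wild-type sample, and replicate 2 was highest in both groups. The rise was 3.01 ± 0.26 (log2, ± SE; limma adjusted p = 0.00014) and between 2.70 and 3.26 when any 1 sample was left out. The other VCL probe sets rose by 1.88 ± 0.27 and, from background in all wild-type samples, at least 5.01-fold.

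The talins did not pass. TLN1 measured 8.39, 8.42 and 8.53 in wild-type and 8.30, 8.28 and 8.60 in Pax5-deficient samples, and the groups overlapped, with a difference of -0.05 ± 0.11 (interval -0.30 to 0.19). TLN2, on chromosome 10, measured 6.86, 6.78 and 6.81 in wild-type and 6.76, 7.28 and 6.76 in Pax5-deficient samples. The single high value was that of replicate 2, the sample in which chromosome 10 genes had a higher median, and the difference was 0.12 ± 0.14. Without that sample it was -0.06 ± 0.09, so the sign turned. Of the other adhesion genes on chromosome 10, ITGB1BP3 was highest (13.58) and ITGA11 lowest (4.11) in Pax5-deficient replicate 2 within its group. The ITGB1BP3 value is the bright signal of uncertain identity, so the chromosome it comes from is uncertain too. Whether the shift of the chromosome plays a part in the TLN2 value was not tested. PXN, the scaffold paxillin, had values of 5.80, 5.83 and 5.74 in wild-type and 5.88, 5.995 and 5.99 in Pax5-deficient samples, which did not overlap but did not pass (0.16 ± 0.08; limma adjusted p = 0.298).

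Among the kindlins, FERMT1 was weakly expressed. It measured 4.24, 4.39 and 4.04 in wild-type samples, all above background, and 3.27, 4.07 and 3.42 in Pax5-deficient samples, of which only replicate 2 was above it. The groups overlapped through that sample, and the difference of -0.64 ± 0.20 did not pass (limma adjusted p = 0.0799). Without Pax5-deficient replicate 2 it was -0.88 ± 0.12 and passed (limma adjusted p = 0.00238). A second FERMT1 probe set fell to background in all Pax5-deficient samples, at least 1.17-fold (limma adjusted p = 0.00342), and the other two were at background throughout. FERMT2 was near background, at 3.85 ± 0.06 and 4.07 ± 0.12 (SD, n = 3), and did not pass. ZYX, a LIM protein of mature adhesions, did not pass as represented by its brightest probe set (-0.26 ± 0.15, and -0.10 ± 0.12 without Pax5-deficient replicate 2), and a dimmer one fell by 0.62 ± 0.14 (limma adjusted p = 0.0213). This dimmer probe set did not pass when either wild-type replicate 2 or 3 was left out (highest limma adjusted p = 0.085).

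Both kinases of the FAK family fell, where 9.74% of all genes did. PTK2, the focal adhesion kinase, measured 7.26, 6.96 and 7.51 in wild-type and 4.98, 5.85 and 4.71 in Pax5-deficient samples. The groups were separated by more than 1 log2 unit, and Pax5-deficient replicate 2 was the highest of its group. The fall was 2.06 ± 0.27 on the log2 scale, or 4.17-fold (limma adjusted p = 0.00137). Without that sample PTK2 fell by 2.39. The other PTK2 probe sets fell 2.50-fold and 3.42-fold, with log2 differences of -1.32 ± 0.15 and -1.77 ± 0.10.

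PTK2B, the relative of FAK that is common in blood cells, measured 7.48, 7.47 and 7.42 in wild-type and 6.99, 6.92 and 6.96 in Pax5-deficient samples. The spread within each group was under 0.1 on the log2 scale, and the groups did not overlap. Its fall was smaller, at 0.50 ± 0.08, or 1.41-fold (limma adjusted p = 0.00432). The array has 1 probe set for it.

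Of the 6 genes of the complex of ILK, PINCH and parvin, 2 fell, 1 rose and 3 did not pass. Among all genes 9.74% fell and 6.01% rose. ILK, the integrin-linked pseudokinase at its centre, measured 9.08, 9.15 and 9.06 in wild-type and 7.91, 8.26 and 7.94 in Pax5-deficient samples. The groups did not overlap, and the fall was 1.06 ± 0.11 on the log2 scale, or 2.09-fold (limma adjusted p = 0.000402). Without Pax5-deficient replicate 2 the ILK difference was -1.17 ± 0.095. PARVG, the parvin of blood cells, measured 6.31, 6.50 and 6.36 in wild-type and 5.50, 5.12 and 5.51 in Pax5-deficient samples. It fell by 1.01 ± 0.12, or 2.02-fold (limma adjusted p = 0.000963), with no overlap. Without Pax5-deficient replicate 2 the PARVG difference was -0.88 ± 0.10. Its other probe set was at background in all samples. PARVA, a parvin of most other tissues, was at background in all samples, and PARVB was above it in 1 sample of each group.

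Of the PINCH genes, 1 rose. LIMS2, which encodes PINCH2, measured 8.36, 8.37 and 8.38 in wild-type and 8.95, 9.16 and 8.83 in Pax5-deficient samples. The groups did not overlap, and the rise was 0.61 ± 0.10 on the log2 scale, or 1.53-fold (limma adjusted p = 0.00524). The other LIMS2 probe sets rose by 0.65 ± 0.17 and 0.58 ± 0.11. With 1 sample left out, the first of these calls was lost in 4 of 6 fits (highest limma adjusted p = 0.0971). The second was lost without wild-type replicate 2 (limma adjusted p = 0.0554). LIMS2 lies on chromosome 9, where 28.2% of 383 genes were called higher and the median gene difference was 0.16. After each sample was centred on the genes of the same chromosome, a step chosen after the data were seen, the rise was 0.40 ± 0.10 (limma adjusted p = 0.0397) and the calls of the other LIMS2 probe sets were lost. LIMS1, which encodes PINCH1, measured 10.12, 10.28 and 10.23 in wild-type and 10.72, 10.42 and 10.26 in Pax5-deficient samples. The groups overlapped, its difference of 0.26 ± 0.12 did not pass, and none of its 6 probe sets passed. All LIMS2 probe sets are of the type that can match several transcripts, and how far LIMS1 and LIMS2 share signal was not tested.

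**Figure D3:**
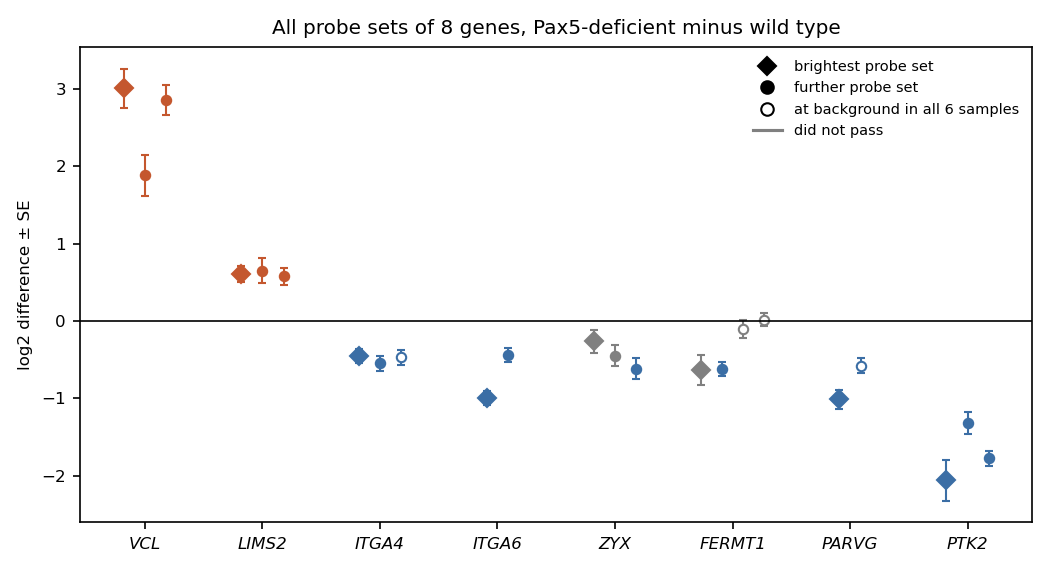
Log2 difference ± SE (y axis, limma, 3 samples per group) of every probe set of 8 genes (x axis). Diamonds are the brightest probe set of a gene, circles the others, open symbols probe sets at background in all 6 samples, and grey marks those that did not pass. With all 6 samples, all 3 probe sets each of VCL, LIMS2, ITGA4 and PTK2 passed in 1 direction, while FERMT1 and ZYX had probe sets on both sides of the threshold.

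**Figure D4:**
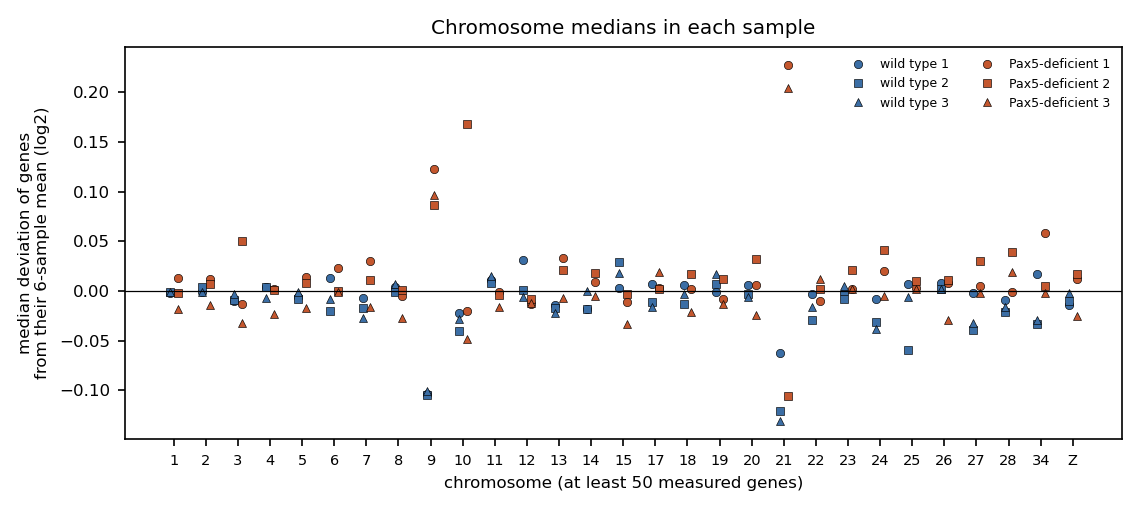
Median deviation of the genes of a chromosome from their mean over the 6 samples (y axis, log2) for each sample, by chromosome (x axis). Chromosome 9, which holds LIMS2, is at 0.09 to 0.12 in the Pax5-deficient and at -0.10 in the wild-type samples, and on chromosome 10, which holds TLN2, only Pax5-deficient replicate 2 stands out, at 0.17.

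The largest change among the adhesion genes was that of EMB. It encodes embigin, a membrane glycoprotein of the immunoglobulin superfamily that takes part in cell adhesion and, like its relative basigin (BSG), escorts monocarboxylate transporters to the surface. EMB measured 9.33, 9.46 and 9.005 in wild-type and 5.02, 2.99 and 4.36 in Pax5-deficient samples. All Pax5-deficient samples were far below the wild-type ones, but they differed widely, and replicate 2 was under the array background while the other two were above it. The fall was 5.14 ± 0.42 on the log2 scale, or 35.3-fold (limma adjusted p = 0.000111). Without Pax5-deficient replicate 2 EMB fell by 4.57, and without replicate 1 it fell by 5.59. BSG measured 9.39, 9.56 and 9.35 in wild-type and 9.15, 9.49 and 9.34 in Pax5-deficient samples. Its groups overlapped, with a difference of -0.11 ± 0.11 (interval -0.36 to 0.14), and none of its 3 probe sets passed.

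The transporters that these glycoproteins escort were among 9 listed relatives and partners, all measured, of which 1 fell, where 9.74% of all genes fell. SLC16A3, a lactate exporter that depends on basigin, measured 9.76, 9.67 and 9.69 in wild-type and 8.02, 7.31 and 7.97 in Pax5-deficient samples. It fell by 1.94 ± 0.17 on the log2 scale with no overlap (limma adjusted p = 0.000184). Leaving out any 1 sample gave differences from -2.07 to -1.72. Its dimmer probe set, at background in all samples, did not pass (-0.14 ± 0.09). SLC16A1, a transporter of lactate and pyruvate, had -0.22 ± 0.10, and SLC16A7, the transporter known to associate with embigin, was near 3.4 in both groups, under background. NPTN, of the same family as embigin and basigin, had -1.33 ± 0.50, which did not pass.

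Other genes of the adhesion machinery were followed in 5 further lists. Their counts stand beside the 9.74% of all genes that were lower and the 6.01% that were higher. Whether a list differed from all genes was not tested. Of 22 measured further integrin activators and adaptors, 3 fell, none rose and 19 did not pass. SIPA1L1, which switches off Rap proteins, fell by 1.24 ± 0.16 on the log2 scale. RAP1A, a small GTPase that promotes integrin activation, fell by 0.61 ± 0.08, and FHL3, a LIM protein, by 1.04 ± 0.20, a call lost without wild-type replicate 2 (limma adjusted p = 0.0503). Of 31 signalling adaptors and kinases of focal adhesions, 5 fell, 1 rose and 25 did not pass. NEDD9, a docking protein that FAK phosphorylates, measured 5.88, 6.51 and 6.54 in wild-type and 3.99, 4.16 and 3.82 in Pax5-deficient samples. It fell by 2.32 ± 0.18 (limma adjusted p = 7.9e-05), and all of its 4 probe sets fell. ASAP1, a GTPase-activating protein that binds FAK, fell by 1.14 ± 0.17, also on all 4 probe sets, and CSK, the kinase that holds Src kinases inactive, by 1.21 ± 0.20. ASAP2 passed with all samples at background.

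Of 36 actin crosslinkers and filament regulators, 6 rose, 4 fell and 26 did not pass. Among all genes 6.01% rose and 9.74% fell. LASP1, a LIM protein that binds actin, measured 9.07, 9.15 and 8.89 in wild-type and 10.14, 10.61 and 10.57 in Pax5-deficient samples. It rose by 1.40 ± 0.14 with no overlap (limma adjusted p = 0.000328), and by 0.46 ± 0.14 and 0.47 ± 0.11 on dimmer probe sets, of which the first did not pass. The call of the second was lost in 4 of 6 fits with 1 sample left out (highest limma adjusted p = 0.109). PDLIM7 and TES, LIM proteins of actin filaments and adhesions, rose by 0.85 ± 0.11 and 1.09 ± 0.17. Their dimmer probe sets rose by 0.46 ± 0.12 and 0.43 ± 0.10, that of TES being above background only in Pax5-deficient replicate 2. With 1 sample left out, these calls were lost in 5 and 4 of 6 fits. EVL, a relative of VASP that extends actin filaments, fell by 0.93 ± 0.15. Of its 8 probe sets 5 did not pass, some of them at background in all samples. ACTN1, the actin crosslinker alpha-actinin, had -0.275 ± 0.15 and FLNA, filamin A, 0.04 ± 0.11, and neither passed.

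Of 24 measured tetraspanins and other membrane partners of integrins, 3 fell, 1 rose and 20 did not pass. Among all genes 9.74% fell and 6.01% rose. CD81, a tetraspanin of the cell surface, fell by 1.24 ± 0.14 on the log2 scale, while its other probe set did not pass (-0.08 ± 0.12). TSPAN14 fell by 0.94 ± 0.15 and CD63 by 0.54 ± 0.11, the latter a call lost when wild-type replicate 2, wild-type replicate 3 or Pax5-deficient replicate 3 was left out (highest limma adjusted p = 0.0543). The dimmer TSPAN14 probe set did not pass (-0.38 ± 0.17). CAV2, a caveolin, rose by 1.63 ± 0.16.

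Ligands of integrins were also measured, 39 in all, of which 4 rose, 2 fell and 33 did not pass. Among all genes 6.01% rose and 9.74% fell. The laminin chains LAMB1 and LAMC1 fell. Of the chains introduced above as laminin receptors or their partners, ITGA6 fell, while ITGA3, ITGB1 and ITGB4 did not pass. ITGA7, a further laminin receptor chain, did not pass either (0.02 ± 0.10). Whether changes of ligand and receptor are linked was not tested. LAMC1 measured 11.64, 11.53 and 11.41 in wild-type and 10.35, 9.98 and 10.13 in Pax5-deficient samples, a fall of 1.37 ± 0.12 on the log2 scale (limma adjusted p = 0.000128). A dimmer LAMC1 probe set fell by 1.34 ± 0.10, and the dimmest did not pass (-0.08 ± 0.10). LAMB1 measured 6.38, 6.78 and 5.98 in wild-type and 4.04, 4.14 and 4.34 in Pax5-deficient samples, a fall of 2.20 ± 0.18. Its other probe set, at background in all samples, did not pass (-0.09 ± 0.12). Another laminin chain, LAMA5, rose by 0.93 ± 0.13, and TGFB1, whose latent form is bound by integrins, by 1.14 ± 0.13. COL1A2, a chain of type I collagen and also a stromal marker, rose by 0.496 on its brightest probe set, a call lost without wild-type replicate 2 (limma adjusted p = 0.0511). Of its 8 probe sets 5 rose, and a dimmer one measured 4.05, 4.11 and 4.15 in wild-type and 8.44, 9.05 and 8.20 in Pax5-deficient samples, a rise of 4.46 ± 0.19 or 22-fold (limma adjusted p = 2.13e-06). Another COL1A2 probe set rose at least 11.2-fold from background in all wild-type samples, and the cause of the disagreement between probe sets was not tested. VCAM1, a cell surface ligand of ITGA4, was near 3.2 in both groups, under background. FN1, the matrix protein fibronectin, had 0.33 ± 0.15, which did not pass. JAM2, also a listed ligand, rose on its brightest probe set, by 1.71 to 2.43 (log2) when any 1 sample was left out. Dimmer JAM2 probe sets rose by 1.21 ± 0.29 and 0.64 ± 0.15, calls lost without any 1 of the wild-type samples. Both were at background in wild-type cells, and the second was above it only in Pax5-deficient replicate 1.

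**Figure D5:**
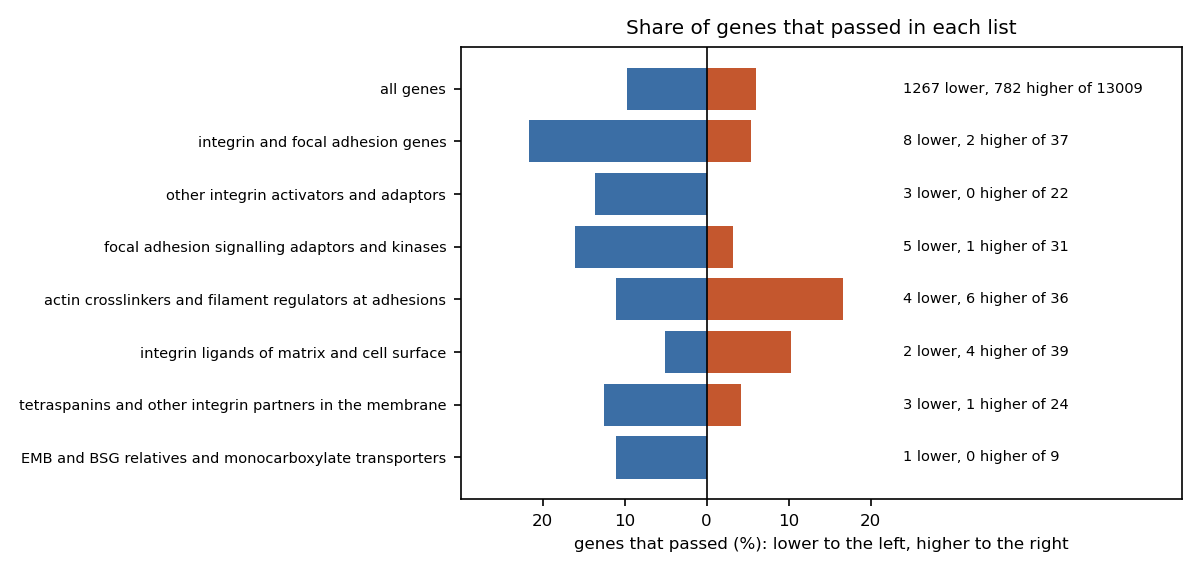
Share of measured genes that passed (x axis, percent, lower to the left in blue and higher to the right in orange) among all 13009 genes, the 37 adhesion genes and 6 lists of related genes (y axis), with the counts printed. Lower calls reached 21.6% of the adhesion genes against 9.74% of all genes, and of the 6 lists that of actin regulators has the most higher calls, 6 of 36.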

How the data were processed

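Biotin-labelled total RNA of 6 DT40 samples was measured on Affymetrix chicken arrays, 1 per sample. The authors deposited log2 expression values per probe set. They were made by RMA, as the submitters' processing notes name it, with software, version and probe set definition not given in the sources used here. RMA generally corrects background, normalizes by quantiles and summarises probes, and it shrinks differences of dim probes, so folds of weak genes are understated. All 38535 probe sets had a value in every sample.

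The 96 control probe sets were left out and 38439 tested. The platform annotation supplied gene names, with which 27168 probe sets had 1 symbol, 177 several and 11094 none here. All 37 adhesion genes matched the RefSeq table of GRCg7b by Entrez ID, which was used for names, chromosomes and gene order. No probe, promoter or protein sequence was used here.

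The fit was made across all probe sets with limma 3.58.1 in R 4.3.3 (group as the only term, eBayes, two-sided), with Benjamini-Hochberg adjustment over all probe sets and a threshold of 0.05. SEs are moderated, confidence intervals are limma's at 95% without adjustment, and differences are Pax5-deficient minus wild type. The median difference of all probe sets, 0.03, was not subtracted. A bound ("at least") sets the mean of 1 group against the other group's mean after values under background were raised to it. Precision is limited by the small number of arrays. The script was tested on simulated data. Tables and plots were made with Python 3.11.15.

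The members, lists and tests were chosen with earlier results of these data known. Values are given for every adhesion gene that passed, for integrin subunits above background and for the other adhesion genes of the rule. Each related list is given with up to 4 genes that passed with the smallest adjusted p, and for integrin ligands every gene that passed is named. PAX5, some lineage markers and neighbouring genes that passed are named besides these. Other genes named did not pass. The result of 1 related list is not reported here. Alternatives were quantile normalization, a filter on dim probe sets, the mean of probe sets, a variance trend, a replicate block, a test against a change of 0.5, and each sample left out.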

Additional observations from a re-analysis of the deposited data

How the results depend on the processing

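The settings tried, 14 in all, reversed no call of an adhesion gene. EMB, PTK2, ILK, ITGA6 and VCL passed under all of them. LIMS2, PARVG, PTK2B and ITGA2 passed wherever they were tested except against a least change of 0.5, and ITGA4 also lost its call without 1 or another of 3 samples. Tested against a least log2 change of 0.5, 1 of the 37 adhesion genes was higher and 4 lower. Of all 13009 genes 105 were higher and 324 lower, and of all 38439 probe sets 191 and 589. Leaving out 1 sample gave 2 higher and between 7 and 9 lower adhesion genes. Over all genes these fits gave between 446 and 760 higher and between 840 and 1337 lower. Over all probe sets they gave between 868 and 1497 higher and between 1622 and 2675 lower. The lowest counts of probe sets came without wild-type replicate 2. After quantile normalization of the deposited values the adhesion gene counts stayed at 2 higher and 8 lower, while over all genes they moved from 782 higher and 1267 lower to 1059 and 1138. The adjustment over 1 probe set per gene, the centring on chromosomes and both settings of the background were chosen after seeing the data. With genes at background in both groups not counted, 7 adhesion genes were lower and 2 higher. Samples of the 2 groups share replicate numbers. The deviations of same-numbered samples from their group means correlated at 0.115, 0.072 and -0.007, so the numbers were not taken to pair samples, and wild-type replicate 3 correlated best with another number. With the replicate block, 2 adhesion genes were higher and 10 lower (ITGB3BP and FERMT1 were added). Over all genes 783 were higher and 1241 lower with the block, and 1523 probe sets were higher and 2593 lower. Genes that did not pass under either setting changed sign in 32 of their comparisons. Lower calls ranged from 1 to 6 for actin regulators when 1 sample was left out. Probe sets near background limit what can be seen of ITGA1, ITGA2, ITGA8, ITGA9, ITGB5, ITGB6 and PARVA.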

Other observations

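The genes next to the adhesion genes that passed were also read, up to 3 measured genes on each side in the order of GRCg7b. Of these 60 places, 5 held genes that fell (8.33%) and 3 genes that rose (5%), slightly smaller shares than the 9.74% and 6.01% of all genes. PARP8, an ADP-ribosyltransferase and the next measured gene after EMB on chromosome Z, fell by 2.99 ± 0.20 (log2, ± SE; limma adjusted p = 3.73e-05), while MRPS30 on the other side had -0.09 ± 0.09. TPP1, a lysosomal protease next to ILK on chromosome 1, fell by 1.69 ± 0.15 (limma adjusted p = 0.000156). PRR5, a partner of the kinase mTOR next to PARVG, fell by 0.65 ± 0.14, and PARVB on the other side of PARVG did not pass. Near LIMS2 on chromosome 9, IWS1 and POLR2D, both of transcription, rose by 0.81 ± 0.12 and 0.50 ± 0.09. They made up 33.3% of the 6 LIMS2 neighbours, where 28.2% of the 383 genes of that chromosome were called higher. Near ITGA4, SSFA2 fell by 0.75 ± 0.13. Calls against the direction of the adhesion gene were those of NDST2, which fell by 1.096 ± 0.15 near VCL (limma adjusted p = 0.00216), and of LOC770996, which rose by 0.35 ± 0.09 near PTK2B (limma adjusted p = 0.0314). These genes were singled out after their values were seen.

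Among the 10 adhesion genes that passed, Pax5-deficient replicate 2 was the sample farthest from the wild-type mean for 5 genes (EMB, PTK2B, PARVG, LIMS2 and VCL), replicate 3 for 3 and replicate 1 for 2. For PTK2 and ILK replicate 2 was the Pax5-deficient sample nearest to the wild-type values.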
